A study of Mus musculus with 16 samples.

Results

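The 38 genes described here belong to the interferon pathway: the receptor chains, the Stat and Irf factors behind them, sensors of viral nucleic acid, and response genes. They were chosen by symbol from a table of 22058 protein-coding mouse genes, by a list of symbols. All 38 were found, 27 passed the filter on low counts and were tested, and 11 did not and are given as counts. Gene expression was measured by sequencing the 3' ends of transcripts in 16 libraries from 4 animals, which were untreated male wildtype C57BL/6 mice numbered 2, 3, 4 and 5; their age is not used here. Each animal gave 1 library of CD11b+ microglia, 1 of EAAT2+ astrocytes, 1 of Thy1+ neurons and 1 titled pooled and given the cell type Input, called the input here, so that every group has 4 libraries. The 3 sorted groups were live cells collected by flow cytometry from dissociated whole brain, with cells positive for O1 or CD31 gated out. At which step the input was taken is not stated. CD11b is also carried by other myeloid cells and Thy1 by T cells, so a gate is not a single cell type.

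Type I interferons are secreted when a cell detects viral nucleic acid, and they bind Ifnar1 and Ifnar2. Interferon gamma binds Ifngr1 and Ifngr2. The kinases Jak1, Jak2 and Tyk2 then activate Stat factors, and Stat2 with Irf9 binds the interferon-stimulated response element in front of many response genes. In the brain, microglia and the cells of vessels are known to respond to interferons, and many response genes keep a low level in the absence of infection.

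Promoter sequences are shown for 2 response genes that were higher and 2 that were lower in microglia than in the input. RefSeq windows on GRCm38.p6 from 250 bases before to 50 bases after the start were matched for 32 of the 38 genes. The core of the response element, GAAA, any 2 bases and GAAA on either strand, was found for 16 of these 32 genes (50.0%) and for 3.99% of 27025 genes with a window of the same length. A motif of Stat dimers, TTCNNNGAA, which reads the same on both strands, was found for 11 of the 32 (34.4%) and for 9.55% of all genes. A match of letters is not a measured binding site. The 160 bases before the RefSeq start of 4 genes are given 5′ to 3′ on the gene's strand, with matches to the core of the response element in capitals.
Isg15 (chr4:156200819-156200978, minus strand): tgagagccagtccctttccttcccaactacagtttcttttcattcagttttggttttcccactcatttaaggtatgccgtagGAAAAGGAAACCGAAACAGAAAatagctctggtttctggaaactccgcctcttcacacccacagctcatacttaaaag
Bst2 (chr8:71537473-71537632, minus strand): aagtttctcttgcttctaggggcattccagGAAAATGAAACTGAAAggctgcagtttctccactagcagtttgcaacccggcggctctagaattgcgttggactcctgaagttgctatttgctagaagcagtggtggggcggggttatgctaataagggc
Ifit1 (chr19:34640729-34640888, plus strand): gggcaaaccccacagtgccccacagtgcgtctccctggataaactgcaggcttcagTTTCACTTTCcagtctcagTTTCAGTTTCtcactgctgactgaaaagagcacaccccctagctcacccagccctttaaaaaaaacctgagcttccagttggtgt
Gbp2 (chr3:142620503-142620662, plus strand): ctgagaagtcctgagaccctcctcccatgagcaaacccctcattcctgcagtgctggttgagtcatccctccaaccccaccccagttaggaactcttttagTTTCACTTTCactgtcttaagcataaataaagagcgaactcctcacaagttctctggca
In these stretches Isg15 has 3 overlapping matches, Bst2 has 2 overlapping matches, Ifit1 has 2 separate matches on the opposite strand, and Gbp2 has 1 on the opposite strand. As described below, Isg15 and Bst2 were higher in microglia and neurons than in the input, while Ifit1 and Gbp2 were lower in microglia and astrocytes.

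Library totals ran from 1702665 to 2811080 counts in the input, 191236 to 1413564 in microglia, 116761 to 393199 in neurons and 211087 to 710828 in astrocytes. Levels are given in CPM, the counts of a gene relative to the scaled size of its library, with the 4 libraries of a group in the order of animals 2, 3, 4 and 5. With 3' reads a transcript gives its reads at 1 end whatever its length, and levels are compared between groups and not between genes. Itgam, which encodes CD11b, Slc1a2, which encodes EAAT2, and Thy1 were each highest in their own gate, at 1781 ± 496, 9839 ± 878 and 246.2 ± 35.4 CPM (SD, n = 4), where the means of the other groups did not pass 251, 3325 and 65.1 CPM. In bulk libraries, fewer cells of a type and less RNA per cell cannot be told apart.

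Markers of cell types moved with the groups. The 10 astrocyte markers summed to 29103 to 42409 CPM in astrocytes and 7013 to 13231 in the input. In neurons they summed to 2572 to 7872 CPM, and in microglia to 1367 to 4448. The 10 neuron markers summed to 3048 to 4860 CPM in neurons and 999 to 1515 in the input. In astrocytes these summed to 582 to 1015 CPM, and in microglia to 147 to 445. The 9 matched of 10 listed microglia markers summed to 21154 to 31727 CPM in microglia, 5319 to 6666 in the input, 1325 to 5198 in neurons and 1393 to 4293 in astrocytes. The 10 endothelial markers summed to 4205 to 5369 CPM in the input, 240.2 to 677.5 in microglia, 353.9 to 1341 in astrocytes and 717 to 1361 in neurons. The 9 matched of 10 T and NK cell markers summed to 583 to 1558 CPM in neurons, 27.1 to 82.7 in microglia, 32.1 to 169 in astrocytes and 14.8 to 28.2 in the input. The 6 neutrophil and monocyte markers summed to 2927 to 11347 CPM in microglia, and the 7 border macrophage markers to 744 to 1200 CPM, against 466 to 1462 and 202 to 283 CPM in the input. Of the neutrophil and monocyte sums, microglia 4 had the highest and the other 3 microglia libraries stood at 2927 to 3601 CPM. The 6 mural markers summed to 1550 to 1815 CPM in the input and 91.2 to 669 over the sorted libraries, and the 9 oligodendrocyte markers to 6265 to 7904 and 626 to 3230 CPM. The 5 choroid plexus markers summed to 4463 to 12731 CPM in the input, 482 to 2826 in microglia and astrocytes, and 2903 to 7982 in neurons. Of these markers, Cd3g was at 0 in the astrocytes and Kcnj8, a mural marker, in microglia. The part of these cells in the results below was not tested.

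Some counts may be shared between the pooled libraries. Gh, which encodes growth hormone of the pituitary and was high in neurons 5 and input 5, had, in the 12 libraries from animals 2 to 4, between 0.399% and 0.912% of its counts in all other libraries. When this rate, or the median of 0.71% for animal 5, is applied to every gene, the estimate comes to 6.73% to 44.5% of the counts of microglia libraries, 3.74% to 5.61% in the input, 25.4% to 64.5% in neurons and 13.6% to 52.9% in astrocytes. The estimate rests on Gh alone and takes all Gh counts of animals 2 to 4 as shared. Some counts were well below it, such as 0 against 6.62 for Igtp in astrocytes 3, so it can be too high for a gene. The calls that ended when the estimate was subtracted are named with their genes, with the same limit.

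**Figure D1:**
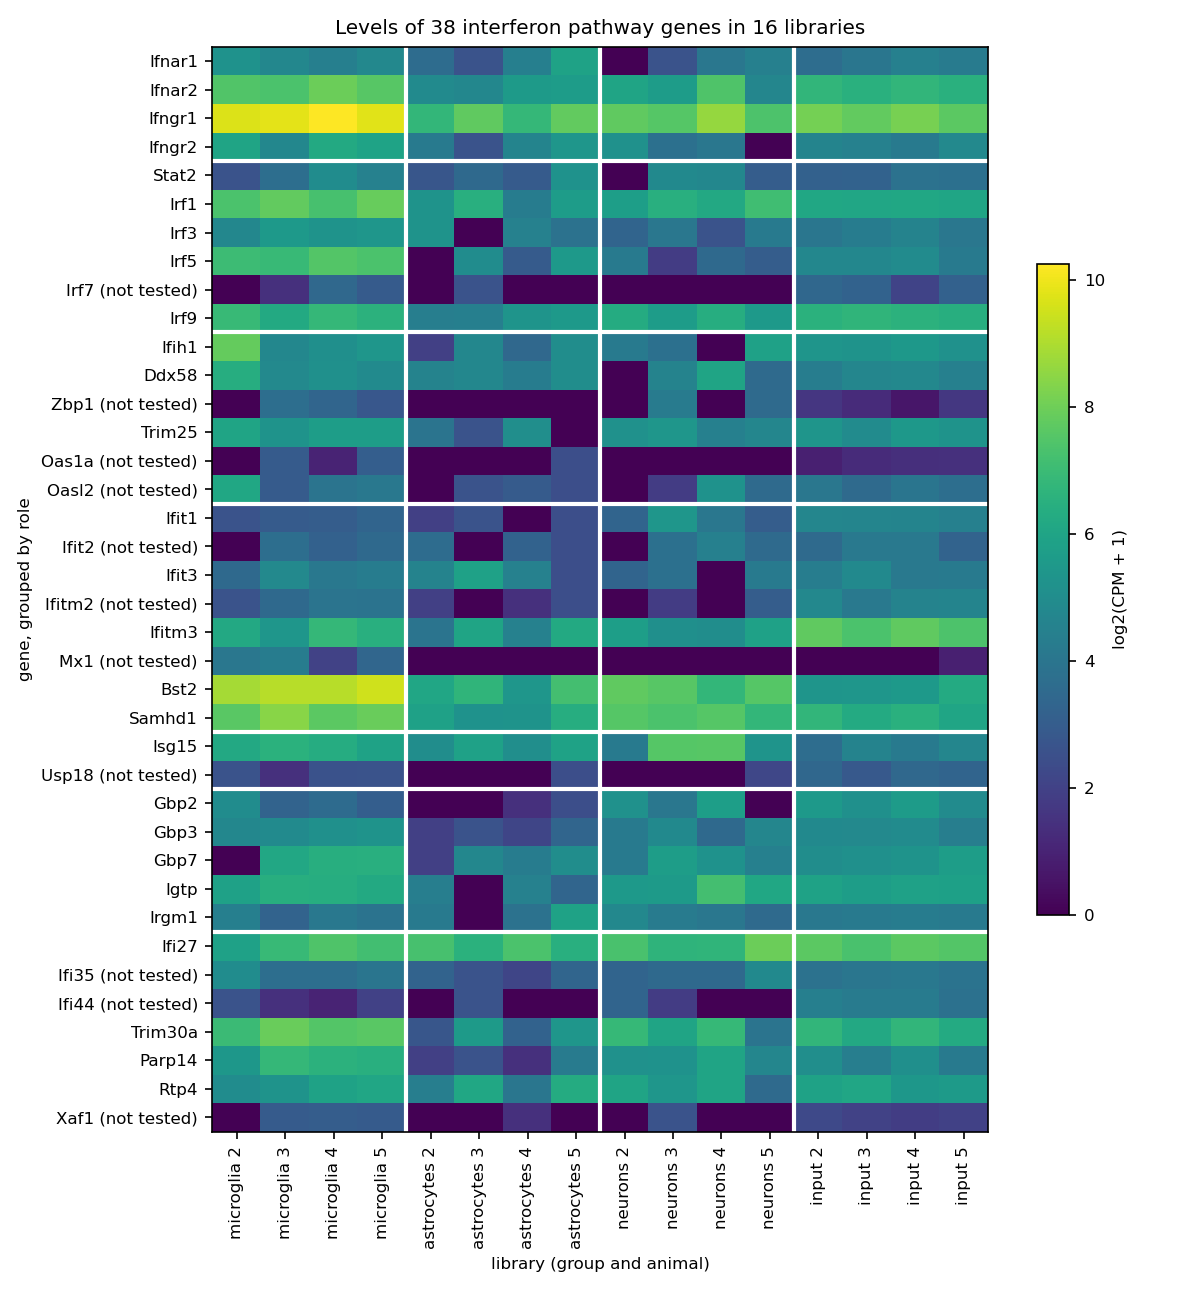
Heat map of log2(CPM + 1) for the 38 genes (rows, grouped by role) in the 16 libraries (columns, grouped by gate and animal). Summed over the 38 genes, microglia libraries stood at 3258 to 3999 CPM and astrocyte libraries at 745 to 1367 CPM. Ifngr1 and Bst2 are the largest parts of the microglia sums. The row of Mx1 is dark outside microglia.

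Summed over the 38 genes, levels ran from 3258 to 3999 CPM in microglia, 1584 to 1857 in the input, 1431 to 2077 in neurons and 745 to 1367 in astrocytes. The ranges of neurons and input overlap, and the other groups do not. Ifngr1 and Bst2 were the largest parts of the microglia sums. Their means were 955 ± 177 and 583 ± 109 CPM in microglia, and 245 ± 40.9 and 50.4 ± 17.7 in the input. The sums therefore do not speak for every gene. Of the 27 tested genes, 18 had their highest group mean in microglia, 5 in the input, 2 in neurons and 2 in astrocytes. The same count was not made over all genes, so it does not set the 27 apart from other genes. In every comparison below, a gene is said to be higher or lower where its adjusted p is under 0.05 (edgeR's quasi-likelihood test, Benjamini-Hochberg over 9091 genes), values after ± are SD for CPM (n = 4) and SE for log2 fold changes, and the first group named is compared with the second. Values given with higher, lower or at, and those in parentheses after a call that ended, are log2 fold changes.

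Counted over the 27 tested genes, microglia against input gave 11 higher and 3 lower, where 24.1% and 29.8% of all 9091 genes were called in those directions, 53.9% in all. The median log2 fold change of the 27 was 0.74, and that of all genes -0.04. Astrocytes against input gave none higher and 10 lower, against 16.3% and 19.1% of all genes, with medians of -0.62 and -0.09. For the higher direction, animal as a block, RLE scaling, no filter and a fit of only these groups each called 1, DESeq2 called 2, an unadjusted p under 0.05 gave 2, Isg15 and Bst2, and the omission of microglia 2 or 4, astrocytes 2 or 4, input 5, or neurons 2, 3 or 5 gave 1 to 2. Neurons against input gave 3 higher and 1 lower, against 11.2% and 13.7% of all genes, with medians of -0.26 and -0.11, and the 1 lower gene, Ifitm3, became 2 to 4 genes without any library other than input 2, 4 or 5. The 4 of 27 called in neurons (14.8%) were below the 24.9% of all genes, and the share in astrocytes (37.0%) was near the 35.4% of all genes. Genes that passed the filter through 1 group where they are high had to differ from the rest, so these counts do not speak for all 38. Shares over all genes are not given for the other settings and the omissions. Separate ranges of the compared libraries were found for 13 of the 27 genes in microglia against input, 10 in astrocytes and 4 in neurons, where the shares over all genes were 52.4%, 37.8% and 28.6%.

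**Figure D2:**
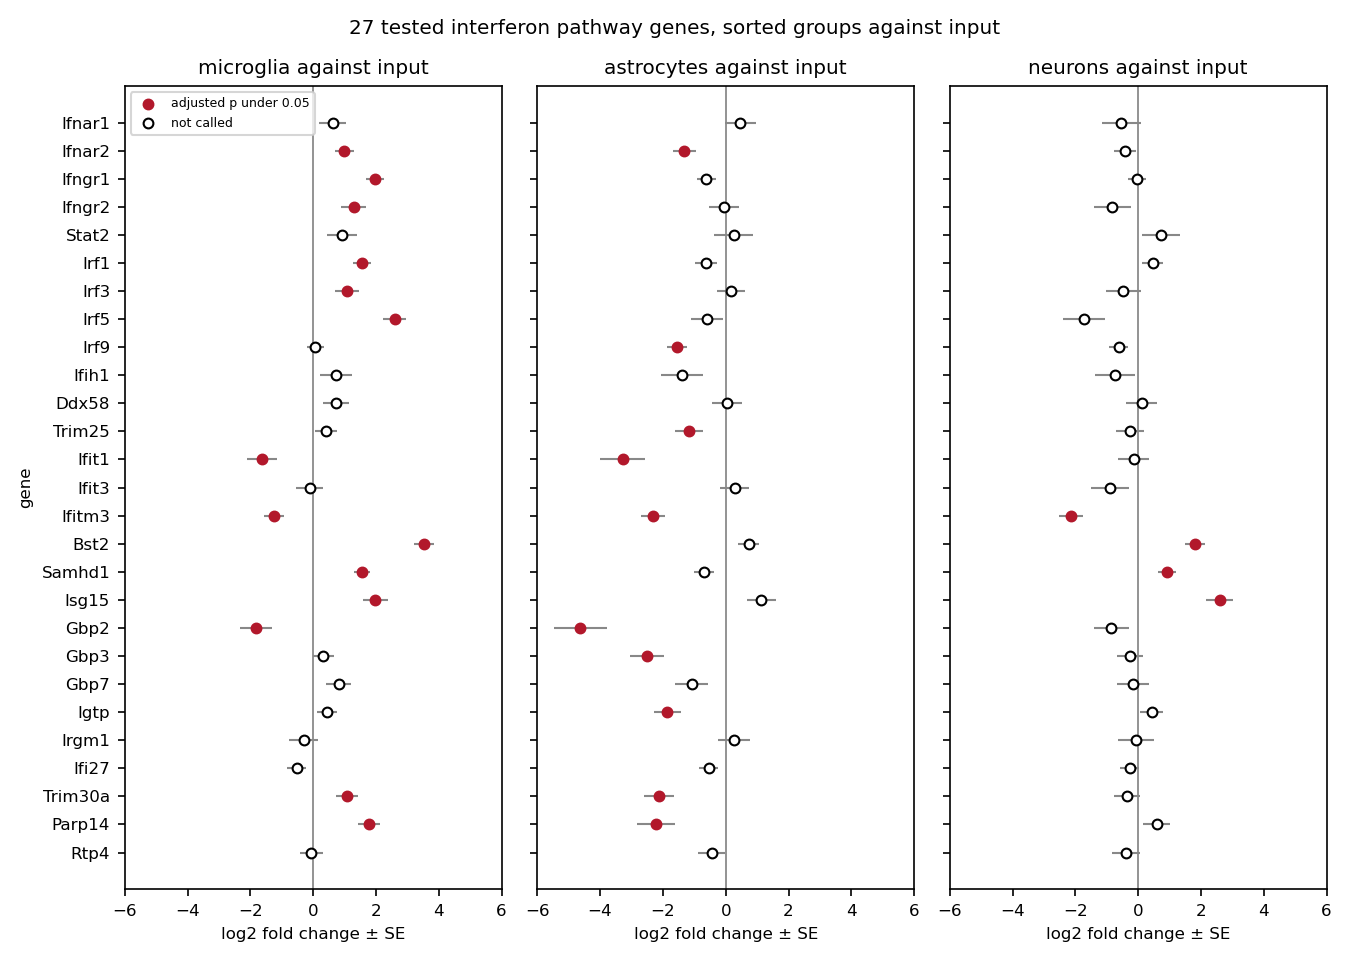
Log2 fold change with SE for the 27 tested genes in each sorted group against the input (4 libraries per group), filled where the adjusted p was under 0.05. Microglia have 11 filled points to the right and 3 to the left, astrocytes 10 to the left, and neurons 3 to the right and 1 to the left.

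Between the sorted groups, microglia against astrocytes gave 17 higher and none lower, against 23.7% and 26.1% of all genes (49.8% in all), with a median log2 fold change of 1.66 beside -0.02 over all genes. Microglia against neurons gave 9 higher and 1 lower, against 20.2% and 24.4% (44.6% in all), with medians of 0.79 and -0.03, the gene lower in microglia being Ifit1. Astrocytes against neurons gave none higher and 10 lower, against 14.8% and 13.7% (28.5% in all), with medians of -0.89 and -0.04. The genes lower in astrocytes than in neurons were Irf1, Ifit1, Isg15, Bst2, Trim30a, Parp14, Gbp2, Gbp3, Igtp and Samhd1. For the directions with no call in microglia against astrocytes and in astrocytes against neurons, DESeq2 also called none, and an unadjusted p under 0.05 gave none. The 6 comparisons share libraries and are not independent of each other. The libraries did not overlap for 14, 7 and 6 of the 27 genes in these 3 comparisons, where the shares over all genes were 37.2%, 30.8% and 19.9%. The 10 genes lower in astrocytes than in neurons became 5 without neurons 3 and 6 without astrocytes 2. Astrocytes 3 and astrocytes 5 had the highest microglia markers of their group. They also had its smallest totals (211087 and 247660 counts) and its highest estimates of shared counts (52.9% and 41.7%). Without both of them, 15 genes were lower in astrocytes than in the input and 20 higher in microglia than in astrocytes. The part of these traits in that change was not tested, and shares over all genes are not given for this setting or for the omission of single libraries.

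**Figure D3:**
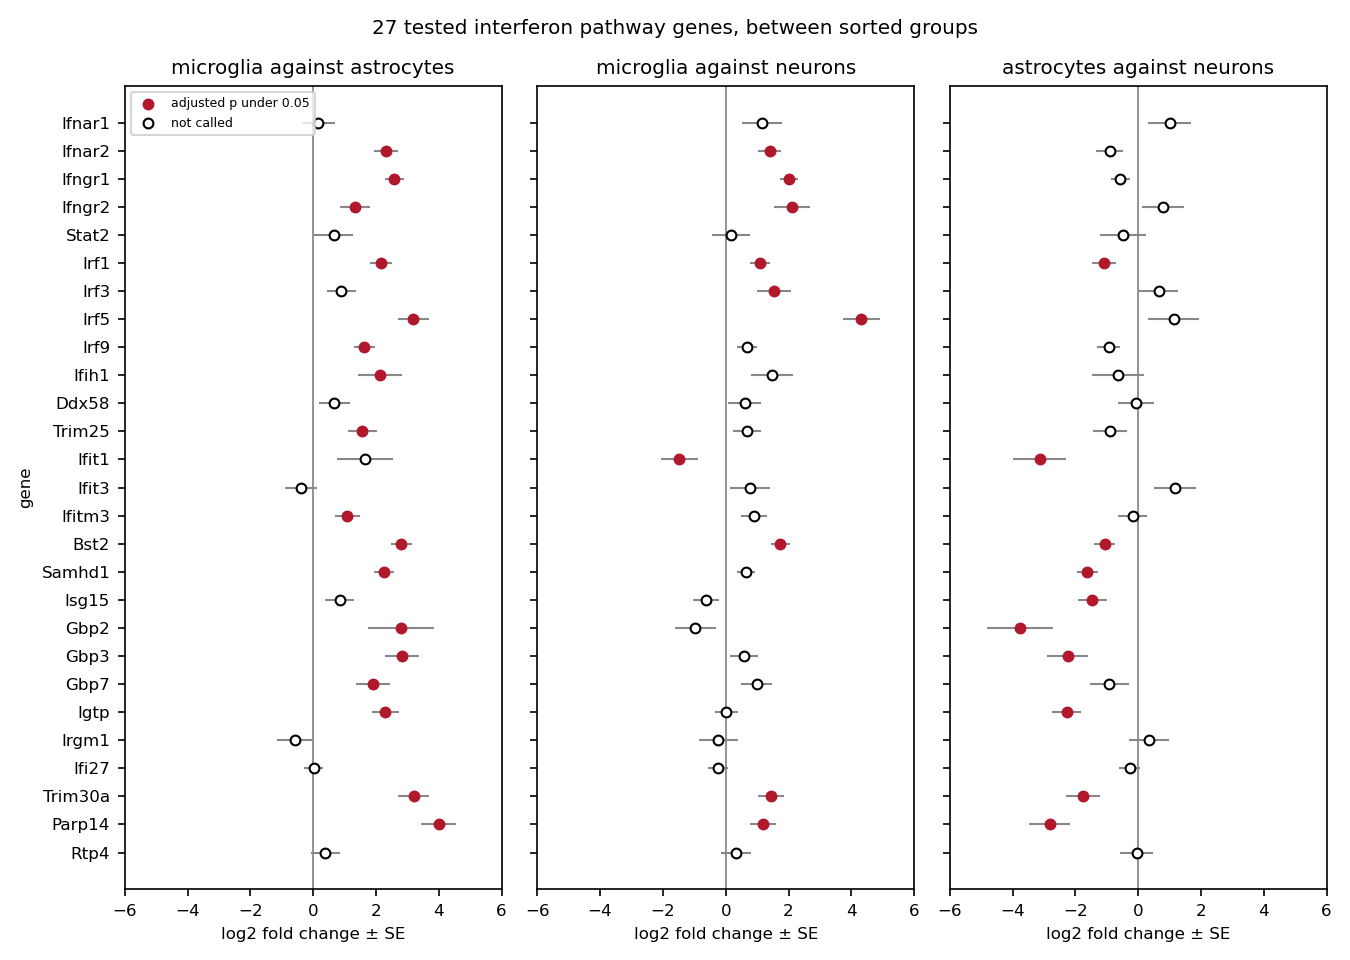
Log2 fold change with SE for the 27 tested genes between the sorted groups (4 libraries per group), filled where the adjusted p was under 0.05. Filled points of microglia against astrocytes are all to the right (17 genes), and those of astrocytes against neurons all to the left (10 genes).

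Of the receptor chains, 3 of 4 were higher in microglia than in every other group: Ifnar2, Ifngr1 and Ifngr2. Of all genes, 24.1% were higher in microglia than in the input, 23.7% than in astrocytes and 20.2% than in neurons. Ifngr1, the chain that binds interferon gamma, lies on chromosome 10 from 19591949 to 19610229 (GRCm38.p6). It stood at 827, 899.8, 1216 and 878 CPM in microglia, 274, 220.1, 285 and 200.4 in the input, 211, 189, 389 and 167 in neurons and 108, 217, 113 and 219 in astrocytes. Every microglia library was above every library of the other groups, which overlap among themselves, and the highest level was in microglia 4, which also led its group in Ifnar2 and Ifngr2. Microglia 4 led its group in the summed microglia markers (31727 CPM) and in the neutrophil and monocyte markers (11347 CPM) as well. The part of either kind of cell was not tested. The log2 fold change of microglia was 1.97 ± 0.28 against input (adjusted p 8.12e-07), 2.58 ± 0.30 against astrocytes (1.91e-08) and 2.01 ± 0.30 against neurons (1.84e-06). In astrocytes and neurons its counts of 24 to 75 stood beside an estimate of 23.0 to 50.2 shared counts, and 4 of these 8 libraries were above their own estimate at the 95% level.

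Ifngr2, the signalling chain of the same receptor, stood at 62.1, 25.5, 72.98 and 61.5 CPM in microglia, 23.6, 22.01, 17.9 and 27.3 in the input, 35.2, 12.9, 15.6 and 0 in neurons and 17.1, 5.16, 23.7 and 41.1 in astrocytes. Microglia 3 overlaps the other groups and the other 3 microglia libraries do not. Microglia were higher by 1.29 ± 0.39 than input, 1.33 ± 0.48 than astrocytes and 2.12 ± 0.57 than neurons (adjusted p 0.00575, 0.0215 and 0.00312). The call against astrocytes ended without microglia 4 (1.20) or microglia 5 (1.29), and subtracting the shared counts ended the calls against input (1.29) and astrocytes (1.64).

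Ifnar2, a chain of the type I receptor, stood at 176, 159.6, 243 and 190.2 CPM in microglia, 105, 89.4, 105 and 89.5 in the input, 61.6, 49.1, 171 and 24.9 in neurons and 28.5, 25.8, 47.3 and 50.3 in astrocytes. Microglia were above and astrocytes below the input with no overlap, and the neurons spread over both, with neurons 4 within the range of the microglia. The log2 fold change was 0.99 ± 0.31 for microglia against input, -1.32 ± 0.37 for astrocytes against input, 2.31 ± 0.37 for microglia against astrocytes and 1.41 ± 0.36 for microglia against neurons (adjusted p 0.00701, 0.00576, 4.75e-06 and 0.002). Without neurons 4 the last became 2.21. With all libraries thinned to the smallest total, the calls of microglia against input (0.97) and neurons (1.02) and of astrocytes against input (-1.30) ended, and subtracting the shared counts ended that of microglia against input (0.98). Its span overlaps that of a predicted gene on the same strand, Irf9 likewise overlaps Rnf31, and Irf1, Irf3, Irf5, Irf7 and Rtp4 each overlap a gene on the opposite strand.

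Ifnar1, the other type I chain, stood at 36.2, 25.5, 20.3 and 26.3 CPM in microglia, 11.8, 15.5, 21.1 and 18.3 in the input, 0, 5.17, 15.6 and 21.3 in neurons and 11.4, 5.16, 20.3 and 59.4 in astrocytes. The groups overlap widely, since astrocytes 5 held the highest level and neurons 2 none. None of its 6 comparisons passed the threshold (lowest adjusted p 0.136).

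**Figure D4:**
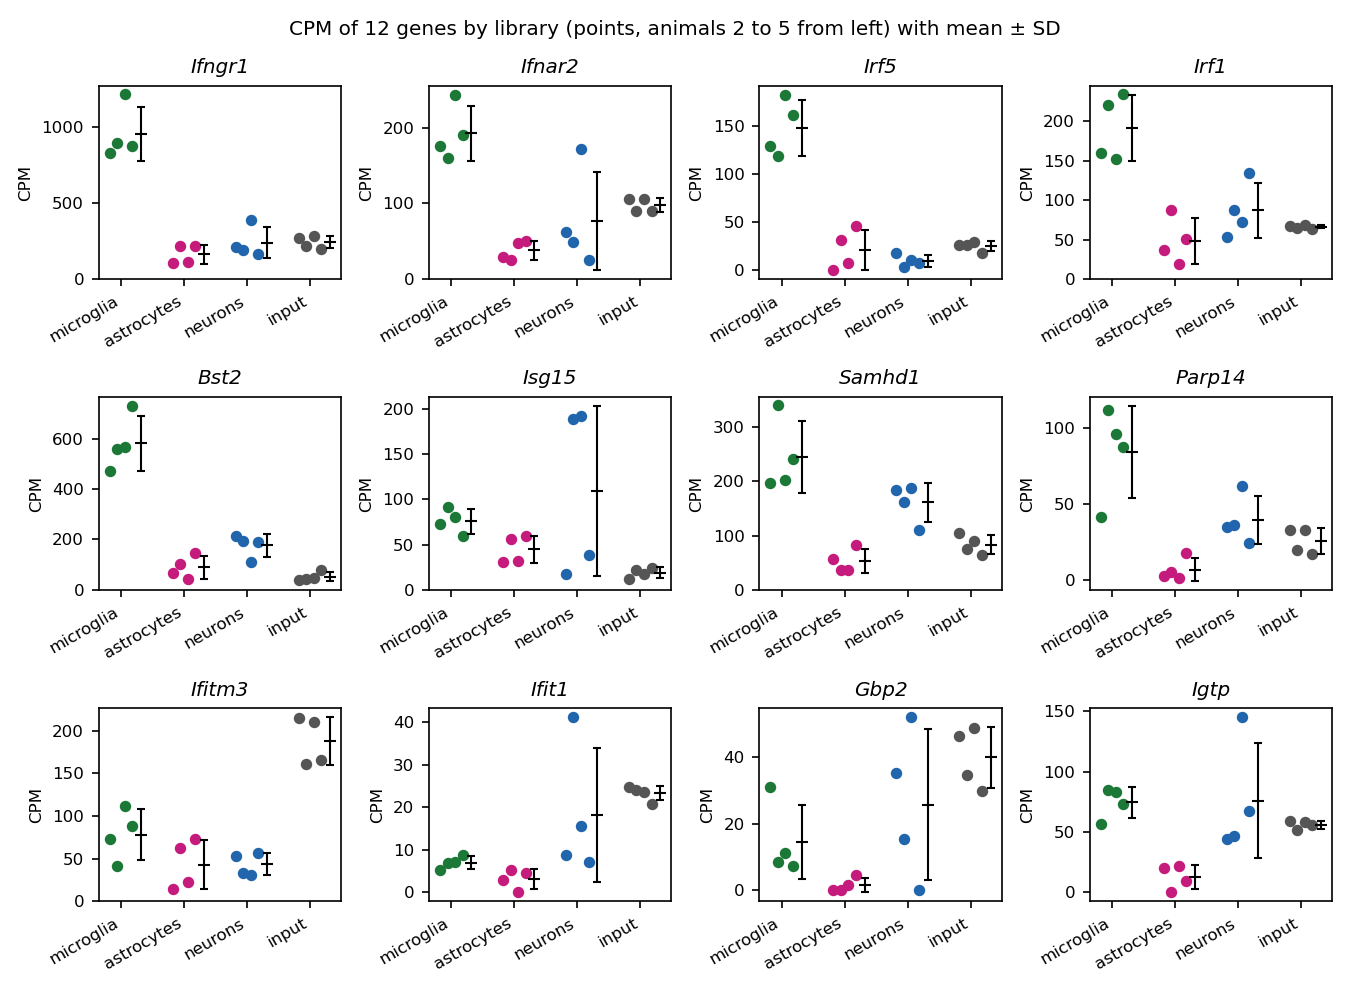
CPM of 12 genes in each library (points, animals 2 to 5 from left to right) with the mean and SD of each group (n = 4). Ifngr1, Irf5 and Bst2 are separate in microglia, Ifitm3 and Ifit1 are lower in microglia and astrocytes than in the input, and neurons 3 and neurons 4 carry Isg15 at 189 and 192 CPM.

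Among the Stat and Irf factors, Irf1, Irf3 and Irf5 were higher in microglia than in the input and Irf9 and Stat2 did not pass that test. Irf5, a factor of myeloid cells downstream of Toll-like receptors, lies on chromosome 6 from 29526625 to 29541871. It stood at 129, 119, 182 and 161 CPM in microglia, 26.1, 26.1, 29.5 and 17.5 in the input, 17.6, 2.58, 10.4 and 7.104 in neurons and 0, 30.9, 6.76 and 45.7 in astrocytes. Microglia were above all other libraries, by 2.59 ± 0.37 against input, 3.19 ± 0.49 against astrocytes and 4.32 ± 0.59 against neurons (adjusted p 8.99e-07, 2.11e-06 and 6.49e-07), and these calls held without each library in turn and in every other setting that tested them. The neurons had 1 to 2 counts each, no more than the 3.29 to 6.61 shared counts estimated for them, and -1.73 ± 0.67 against input with an adjusted p of 0.0581.

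Irf1, a factor induced by interferon gamma, stood at 160.3, 221, 152 and 234 CPM in microglia, 67.3, 65.3, 68.6 and 63.95 in the input, 52.8, 87.8, 72.7 and 135 in neurons and 37.1, 87.7, 18.6 and 50.3 in astrocytes. Microglia libraries were all above the rest. Microglia were higher by 1.54 ± 0.29 than input, 2.16 ± 0.35 than astrocytes and 1.09 ± 0.33 than neurons (adjusted p 4.40e-05, 4.89e-06 and 0.00693). Astrocytes were lower than neurons at -1.07 ± 0.38 (0.0335), a call that ended without astrocytes 2 (-1.01), astrocytes 4 (-0.74), neurons 3 (-1.10) or neurons 5 (-0.81) and with only these groups fitted (-1.16). Of its calls, the one against astrocytes was the only one kept when the shared counts were subtracted; microglia against input then stood at 1.59, microglia against neurons at 1.65 and astrocytes against neurons at -2.10.

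Irf3, the factor that acts first on interferon beta, stood at 25.9, 44.1, 37.5 and 40.2 CPM in microglia, 15.2, 18.9, 23.2 and 15.8 in the input, 8.800, 15.5, 5.19 and 17.8 in neurons and 37.1, 0, 21.98 and 13.7 in astrocytes. Microglia did not overlap the neurons or the input, while astrocytes ranged from none to the microglial level. Microglia were higher by 1.07 ± 0.38 than input (0.0178) and by 1.54 ± 0.54 than neurons (0.0203). The first call ended without microglia 5 (1.04), input 2 (0.97), input 3 (1.07) or input 5 (0.99) and with animal as a block (1.07, adjusted p 0.0505), and the second without neurons 4 (1.36). Subtracting the shared counts left the first at 1.04, no longer called.

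Irf9, the DNA-binding partner of Stat2, stood at 119, 74.7, 111 and 95.1 CPM in microglia, 92.6, 103, 94.9 and 85.3 in the input, 79.2, 49.1, 83.1 and 46.2 in neurons and 19.98, 20.6, 38.9 and 45.7 in astrocytes. Astrocytes were below every library of the other groups, at -1.56 ± 0.32 against input and with microglia 1.63 ± 0.33 above them (adjusted p 0.000338 and 0.000121). Microglia and input overlap, and neurons passed no test for this gene. Stat2 stood at 5.17, 11.9, 30.4 and 21.9 CPM in microglia, 7.996, 8.25, 13.7 and 12.8 in the input, 0, 28.4, 25.96 and 7.104 in neurons and 5.71, 10.3, 6.76 and 36.6 in astrocytes, with wide overlap and no call (lowest adjusted p 0.112). Its highest level was in astrocytes 5, with 8 counts.

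Of the 3 tested genes of nucleic acid sensing, 2 were higher in microglia than in astrocytes, where 23.7% of all genes were higher. Ifih1, which encodes the RNA sensor MDA5, and Trim25, a ubiquitin ligase that acts on RIG-I, were higher in microglia than in astrocytes by 2.12 ± 0.69 and 1.56 ± 0.46 (adjusted p 0.0112 and 0.00543). Ifih1 stood at 228, 25.5, 33.4 and 40.2 CPM in microglia, so that microglia 2 stood apart, and the call ended without it (1.22) or without astrocytes 4 (1.89). Trim25 was lower in astrocytes than in the input at -1.15 ± 0.45 (0.0428), a call lost without microglia 2, 4 or 5, astrocytes 2, 3 or 5, or input 2, 4 or 5, with values from -2.13 to -0.86 over the omission of each library in turn. It also ended with RLE scaling (-1.07), with only the compared groups fitted (-0.99), with the shared counts subtracted (-1.55) and without astrocytes 3 and astrocytes 5 together (-0.46). Ddx58, which encodes RIG-I, passed none of its 6 comparisons (lowest adjusted p 0.14), with group means of 43.4 ± 26.4 CPM in microglia, 23.1 ± 3.53 in the input, 24.1 ± 27.2 in neurons and 24.8 ± 5.63 in astrocytes.

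The antiviral effectors split in direction. Bst2, which encodes tetherin and holds budding virus at the membrane, lies on chromosome 8 from 71534255 to 71537456. It stood at 471, 560.3, 568 and 732 CPM in microglia, 39.1, 41.3, 44.3 and 76.7 in the input, 211, 194, 109 and 188 in neurons and 65.6, 103, 40.6 and 146 in astrocytes. Microglia were above every other library, neurons were above the input, and astrocytes overlap both neurons and input. Microglia were higher by 3.54 ± 0.31 than input, 2.81 ± 0.33 than astrocytes and 1.74 ± 0.31 than neurons (adjusted p 5.81e-10, 2.09e-08 and 3.23e-05), and these 3 calls held in every setting run. Neurons were higher than the input by 1.80 ± 0.32 (0.000117), which was not called with the shared counts subtracted (1.501). Astrocytes stood at 0.73 ± 0.33 against input (0.086) and were lower than neurons at -1.07 ± 0.35 (0.0188), a call that ended without astrocytes 2 (-0.97), astrocytes 4 (-0.81) or neurons 3 (-1.01) and with thinned libraries (-0.74).

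Samhd1, a phosphohydrolase that depletes the nucleotides needed for reverse transcription, stood at 197, 339.6, 203 and 241 CPM in microglia, 105, 75.6, 89.7 and 63.95 in the input, 185, 163, 187 and 110.1 in neurons and 57.1, 36.1, 37.2 and 82.3 in astrocytes. Microglia and neurons were both above the input, and astrocytes overlapped the input alone. Microglia were higher by 1.56 ± 0.27 than input and 2.25 ± 0.31 than astrocytes, and astrocytes lower than neurons at -1.61 ± 0.33 (adjusted p 1.01e-05, 3.39e-07 and 0.000303). Neurons were higher than the input by 0.92 ± 0.28 (0.0159), which ended without input 3 (0.86), input 5 (0.80) or neurons 3 (0.90), with thinned libraries (0.81) and with the shared counts subtracted (0.81). The summed T and NK cell markers were highest in the neuron libraries, and their part in this result was not tested.

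Ifitm3, a membrane protein that blocks viral fusion, was lower in all 3 sorted groups than in the input, and lies on chromosome 7 from 141009586 to 141010770. It stood at 215, 162, 211 and 166 CPM in the input, 14.3, 61.9, 21.98 and 73.2 in astrocytes, 72.4, 40.7, 111 and 87.8 in microglia and 52.8, 33.6, 31.2 and 56.8 in neurons. The input did not overlap any sorted group, and the sorted groups overlap each other. The log2 fold change against input was -1.23 ± 0.32 in microglia, -2.32 ± 0.38 in astrocytes and -2.14 ± 0.38 in neurons (adjusted p 0.00155, 1.90e-05 and 0.000133). These 3 comparisons share the input libraries. In astrocytes and neurons its counts were 5, 12, 13 and 16 and 6, 13, 6 and 16, and no library exceeded its estimate of shared counts, which ran from 8.47 to 18.6, by the lower bound of an exact 95% Poisson interval. Microglia were higher than astrocytes by 1.08 ± 0.40 (0.0235), a call that ended without microglia 4 (0.89), microglia 5 (1.03), astrocytes 2 (0.83) or astrocytes 4 (0.80), with only the compared groups fitted (0.94) and with thinned libraries (0.60). The summed endothelial, mural and oligodendrocyte markers were also highest in the input with no overlap, and their part in this result was not tested.

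Ifit1, which binds viral RNA lacking a methylated cap, had the promoter matches shown above. It stood at 24.8, 24.1, 23.7 and 20.9 CPM in the input, 2.85, 5.16, 0 and 4.57 in astrocytes, 5.17, 6.79, 7.095 and 8.78 in microglia and 8.800, 41.3, 15.6 and 7.104 in neurons. Microglia and astrocytes were below every input library, and neurons 3, with 16 counts, was above them all. Microglia were lower than input at -1.63 ± 0.47 (0.00393) in the fit. Astrocytes held 3 counts against 223 in the input, which made the input 10.6-fold (95% interval 3.57 to 51.6) higher relative to library size, and neurons 10.2-fold (95% interval 3.06 to 53.2) higher than astrocytes. The call of microglia below neurons (-1.48 ± 0.58, adjusted p 0.0382) ended without microglia 3, 4 or 5, astrocytes 2, any input library, or neurons 3, whose omission left -0.42, and with animal as a block (-1.29), no filter on low counts (-1.35) or the shared counts subtracted (-1.74). No astrocyte library exceeded its estimate of 1.08 to 2.08 shared counts. Without neurons 3 the fitted call of astrocytes below neurons ended too (-2.11). Ifit3, a partner of Ifit1 in the same complex, passed no comparison (lowest adjusted p 0.193) and shares near-identical sequence with Ifit3b, so that its counts are uncertain.

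Isg15, a ubiquitin-like modifier secreted or joined to proteins after interferon, lies on chromosome 4 from 156199424 to 156200818 and stood at 72.4, 91.7, 81.1 and 59.3 CPM in microglia, 11.8, 22.7, 17.4 and 24.7 in the input, 17.6, 189, 192 and 39.1 in neurons and 31.4, 56.7, 32.1 and 59.4 in astrocytes. Microglia and astrocytes were above the input with no overlap. The neurons were split, with neurons 3 and neurons 4 above every other library and neurons 2 within the range of the input. Against input the log2 fold change was 1.97 ± 0.40 in microglia and 2.59 ± 0.42 in neurons (adjusted p 0.00011 and 3.73e-05), and 1.13 ± 0.46 in astrocytes (0.0535). The T and NK cell markers summed to 1558, 1361, 1553 and 583 CPM in the 4 neuron libraries, and their part in this result was not tested. Astrocytes were lower than neurons at -1.46 ± 0.46 (0.0169), a call that ended without astrocytes 2 (-1.31), astrocytes 4 (-1.31), neurons 3 (-1.03) or neurons 4 (-1.17) and with the shared counts subtracted (-1.85). Isg15 was the only one of the 38 genes whose counts exceeded the estimate of shared counts in all 4 astrocyte libraries, with 11, 11, 19 and 13 counts against at most 4.44.

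Of the 5 interferon-inducible GTPases, which attack the vacuoles of intracellular pathogens, 3 were lower in astrocytes than in the input (19.1% of all genes) and 4 were higher in microglia than in astrocytes (23.7% of all genes). Gbp2, which lies on chromosome 3 from 142620602 to 142638008, stood at 46.3, 34.4, 48.5 and 29.8 CPM in the input, 0, 0, 1.69 and 4.57 in astrocytes, 31.03, 8.49, 11.1 and 7.32 in microglia and 35.2, 15.5, 51.9 and 0 in neurons. Astrocytes held 2 counts against 372 in the input, which was 26.4-fold (95% interval 7.27 to 219) higher, and the neurons ranged from none to above the input. No astrocyte library exceeded its estimate of 1.70 to 3.26 shared counts. Microglia were lower than the input at -1.82 ± 0.50 (0.00255), although microglia 2 overlapped it. Microglia, with 32 counts, were 6.91-fold (95% interval 1.76 to 59.5) higher than astrocytes, and neurons, with 20, were 13.9-fold (95% interval 3.38 to 123) higher. The fitted call of the first ended without astrocytes 2 (2.46) or astrocytes 4 (2.97).

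Gbp3 showed a different profile, at 25.9, 28.9, 34.5 and 37.3 CPM in microglia, 28.2, 27.2, 30.1 and 19.6 in the input, 17.6, 28.4, 10.4 and 24.9 in neurons and 2.85, 5.16, 3.38 and 9.14 in astrocytes. Astrocytes were below every other library, with 1 to 2 counts and none above its estimate of 1.53 to 2.93 shared counts, and the other 3 groups overlap. Astrocytes were lower than input at -2.51 ± 0.55 and than neurons at -2.25 ± 0.65, and microglia higher than astrocytes by 2.83 ± 0.56 (adjusted p 0.000596, 0.00843 and 7.79e-05), the call against neurons ending without neurons 3 (-2.005). Igtp, also called Irgm3, was lower in astrocytes than in the input at -1.85 ± 0.43 and than in neurons at -2.28 ± 0.47, and higher in microglia than in astrocytes by 2.30 ± 0.44. Its span overlaps that of Irgm2 on the same strand. Gbp7 was higher in microglia than in astrocytes by 1.90 ± 0.53 (0.00364), with none in microglia 2 and 0, 69.6, 86.2 and 87.8 CPM over the 4 libraries. Irgm1 passed no comparison (lowest adjusted p 0.409). The guanylate-binding proteins are a family of close copies, and how reads that match several members were counted is not given in the sources used here.

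Among the remaining response genes, Parp14, an ADP-ribosyltransferase, stood at 41.4, 112, 96.3 and 87.8 CPM in microglia, 32.8, 19.9, 33.2 and 17.1 in the input, 35.2, 36.2, 62.3 and 24.9 in neurons and 2.85, 5.16, 1.69 and 18.3 in astrocytes. Microglia were above the input and above the astrocytes in every library, and the astrocyte libraries had 1 to 4 counts, none above its estimate of 2.28 to 4.37 shared counts. Microglia were higher by 1.78 ± 0.34 than input, 4.00 ± 0.55 than astrocytes and 1.18 ± 0.42 than neurons (adjusted p 5.79e-05, 3.74e-07 and 0.0203). The last ended without microglia 3 (1.07), neurons 3 (1.17) or neurons 5 (1.03), with only the compared groups fitted (0.97) and with the shared counts subtracted (1.49). Astrocytes were lower than input at -2.22 ± 0.60 and than neurons at -2.81 ± 0.65 (0.00419 and 0.00128), the first ending without astrocytes 4 (-1.54).

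Trim30a, a regulator of Toll-like receptor signalling in the mouse, stood at 124, 238, 182 and 198 CPM in microglia, 105, 72.2, 105 and 76.7 in the input, 114, 61.98, 114 and 14.2 in neurons and 5.71, 46.4, 8.45 and 41.1 in astrocytes. Microglia were above and astrocytes below the input with no overlap, and no astrocyte library, with 2 to 9 counts, exceeded its estimate of 6.15 to 11.8 shared counts. The log2 fold change against input was 1.07 ± 0.35 in microglia and -2.13 ± 0.48 in astrocytes (adjusted p 0.011 and 0.000931), and microglia were 3.20 ± 0.48 above astrocytes and 1.44 ± 0.42 above neurons. Thinned libraries ended the calls of microglia against input (0.55) and neurons (0.72), and the subtraction ended the first (1.05). Astrocytes were lower than neurons at -1.76 ± 0.55 (0.0148), which ended without astrocytes 2 (-1.39), astrocytes 4 (-1.34) or neurons 4 (-1.45).

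Ifi27, a mitochondrial protein induced by type I interferon, differed in none of the 6 comparisons, at 56.9, 121, 172 and 139 CPM in microglia, 202, 158, 200.4 and 179 in the input, 158, 101, 104 and 248.6 in neurons and 151, 92.8, 161 and 86.9 in astrocytes. The groups overlap (lowest adjusted p 0.122). Rtp4, which binds flavivirus replicase in some mammals, passed no comparison either (lowest adjusted p 0.445). In all, 7 of the 27 tested genes passed none of the 6 comparisons: Ddx58, Ifi27, Ifit3, Ifnar1, Irgm1, Rtp4 and Stat2. The same count was not made over all genes, so it does not set the 27 genes apart from other genes. A p above the threshold does not show that the levels of these 7 are alike.

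The 11 genes below the filter had few counts in the sorted groups. Mx1, a dynamin-like GTPase that most laboratory strains carry in a defective form, had 3, 11, 3 and 13 counts in the microglia libraries, none in astrocytes or neurons, and 2 over the input. It was thus 45.6-fold (95% interval 11.6 to 394) higher in microglia than in the input, and, against a floor of 3 counts over a group, at least 4.32-fold higher than in astrocytes and at least 3.11-fold higher than in neurons. Ifi44 had 49, 53, 35 and 31 counts in the input, 7 in microglia, 1 in astrocytes and 2 in neurons, and was 23.9-fold (95% interval 4.23 to 949) higher in the input than in astrocytes and 8.597-fold (95% interval 2.34 to 71.6) higher than in neurons. No library of the sorted groups exceeded its estimate of shared counts for Ifi44.

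Ifitm2, a neighbour and close copy of Ifitm3, had 212 counts in the input, 40 in microglia and 3 each in astrocytes and neurons, and was 10.1-fold (95% interval 3.39 to 49.1) higher in the input than in astrocytes and 7.23-fold (95% interval 2.44 to 35.4) higher than in neurons. Usp18, the protease that removes Isg15, had 81 counts in the input, 14 in microglia and 1 each in astrocytes and neurons, with the input 11.52-fold (95% interval 2.01 to 460.5) above astrocytes. Irf7, the factor that amplifies type I interferon, had 72 counts in the input, 20 in microglia, 1 in astrocytes and none in neurons, where the input was at least 2.46-fold higher. Zbp1, a sensor of Z-form nucleic acid, had 24 counts in microglia, 10 in neurons, none in astrocytes and 15 in the input. Oas1a, a sensor that makes 2-5A, had 15 counts in microglia, 1 in astrocytes, none in neurons and 13 in the input. Oasl2, its relative, had 13, 4, 14 and 22 counts in the microglia libraries, 6 over the astrocytes, 11 over the neurons and 124 over the input. Ifit2, Ifi35 and Xaf1 had 126, 140 and 30 counts in the input and 29, 45 and 20 in microglia. They had 10, 8 and 1 in astrocytes and 12, 15 and 2 in neurons. Counts are not scaled, and library totals were largest in the input. In mean CPM, Oasl2, Oas1a, Mx1, Ifi35 and Xaf1 were highest in microglia. Irf7, Ifit2, Ifitm2, Usp18 and Ifi44 were highest in the input, and Zbp1 in neurons. For Ifi35 the means were 17.4 ± 9.15 CPM in microglia and 14.8 ± 1.27 in the input. Microglia 2 held 67.2 CPM of Oasl2 and 31.0 of Ifi35. The other microglia libraries held 6.79 to 16.1 and 11.9 to 14.6 CPM, and the input 10.7 to 15.6 and 13.5 to 16.3. None of these 11 was tested in the fit, and their counting intervals cover no difference between animals.

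Other genes of interferon signalling, sensing and response, 109 in a list that leaves out the 38, gave 105 matched symbols and 67 tested genes. In microglia against input, 41 of the 67 were higher and 5 lower, where 24.1% and 29.8% of all genes were called, with a median log2 fold change of 1.20 beside -0.04 over all genes. The largest increases were Trim5, a restriction factor, at 3.38 ± 0.48 and Eif2ak2, the kinase PKR that halts translation on viral RNA, at 3.29 ± 0.41, and the largest decreases Rsad2, which encodes viperin, at -2.27 ± 0.31 and its neighbour Cmpk2 at -1.55 ± 0.51. The call of Cmpk2 ended with DESeq2 (-1.08), with the shared counts subtracted (-1.89) and without microglia 4 (-1.13) or microglia 5 (-1.04). In astrocytes against input, 4 of the 67 were higher and 24 lower, against 16.3% and 19.1% of all genes (medians -0.69 and -0.09), with Ifit3b at 1.87 ± 0.44 and Eif2ak2 at 1.59 ± 0.49 above, the latter lost without astrocytes 4 (1.56) and with the subtraction (1.32), and Slfn2 at -3.12 ± 0.65 and the GTPase gene Iigp1 at -2.61 ± 0.58 below. In neurons against input, 10 were higher and 4 lower, against 11.2% and 13.7% of all genes (medians 0.11 and -0.11), so that the 20.9% called were below the 24.9% of all genes, with Ifi203 at 2.98 ± 0.42 and Trim12c at 1.96 ± 0.34 above, and the galectin gene Lgals9 at -1.84 ± 0.51 and Irf8, a factor of myeloid cells, at -1.24 ± 0.44 below. The call of Irf8 ended without microglia 4, astrocytes 4, input 2 or 4, or neurons 3 or 5, and with 4 other settings, with values from -1.23 to -0.71.

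Of the kinases at the receptors, Tyk2 was higher in microglia than in the input by 2.50 ± 0.41, in microglia than in astrocytes by 2.31 ± 0.55 and in microglia than in neurons by 1.40 ± 0.51, the last lost without microglia 3 (1.34), microglia 4 (1.37) or neurons 5 (1.31) and with the shared counts subtracted (1.73). Jak1 was higher in microglia than in astrocytes by 0.85 ± 0.24 and Jak2 by 1.01 ± 0.40 (adjusted p 0.00411 and 0.0334), and neither passed a test against the input or against neurons. The call of Jak2 ended with animal as a block (1.04, adjusted p 0.053), without microglia 4 (0.99) or astrocytes 5 (0.85), without astrocytes 3 and 5 together (0.85), with only the compared groups fitted (0.94) and with the shared counts subtracted (1.56).

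**Figure D5:**
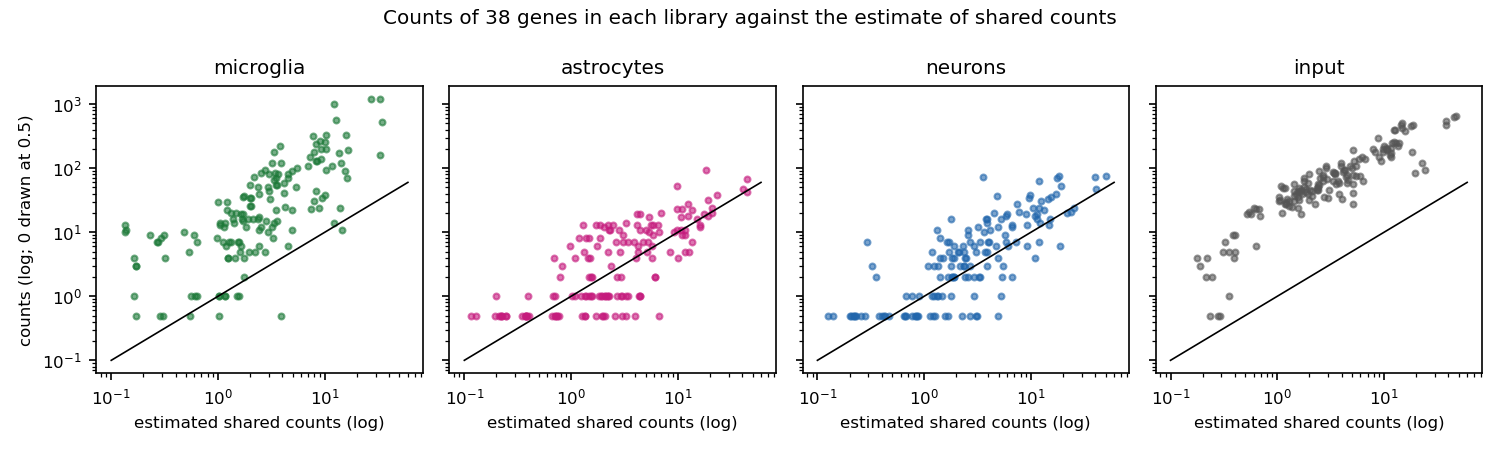
Counts of the 38 genes in each library (vertical log axis, counts of 0 drawn at 0.5) against the estimate of counts shared between libraries (horizontal log axis), with a line where both are equal. Input points lie well above the line and microglia points mostly above it, while astrocyte and neuron points lie on both sides.

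Set against the estimate of shared counts, 35 of the 38 genes exceeded it in all 4 input libraries and 18 in all 4 microglia libraries, by the lower bound of an exact 95% Poisson interval. In astrocytes this held for 1 gene, Isg15, and in neurons for 1, Samhd1. For 18 genes no astrocyte library exceeded the estimate, and for 12 genes no neuron library did, which covers Ifitm3, Irf5, Ifitm2, Usp18, Irf7 and Ifi44 in both groups. At this depth a low level of these genes in astrocytes or neurons was not detectable above the estimate. The estimate itself can be too high for a gene. Irf5 had 1 count against 5.23 in neurons 3, and Ifitm3 6 against 18.6 in neurons 4. A count not above the estimate therefore does not show that a gene was absent. Genes above the estimate in at least 3 astrocyte libraries were Isg15, Ifit3, Ddx58, Irgm1, Ifnar1 and Ifngr2, and in at least 3 neuron libraries Isg15, Bst2, Trim30a, Igtp and Samhd1. These intervals cover counting error only. The same counts were not made over all genes, so they do not set the 38 genes apart from other genes.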

How the data were processed

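Each of the 16 libraries was prepared as 3' tag sequencing with molecular identifiers and pooled for sequencing with reads of 65 bases, per the labels' protocols. The authors deposited counts per gene in whole numbers, and counts of 100 or more are rounded to 2 digits in the deposited table. STAR, Subread 1.6.2 with featureCounts, edgeR and the build GRCm38.p6 are named in the submitters' processing notes, with no role or order. How reads matching several genes were treated is not given in the sources used here. Coordinates are those of the deposited table on GRCm38.p6, and promoter windows are RefSeq's on the same build.

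The counts were fitted in R 4.3.3 with edgeR 4.0.16 (limma 3.58.1): genes with low counts were removed (filterByExpr), libraries scaled by TMM, 1 mean fitted per group over all 16 libraries, and 6 pairwise comparisons made with the quasi-likelihood test and Benjamini-Hochberg adjustment over 9091 genes at 0.05. SE is the log2 fold change divided by the square root of F. Where a fold is given for a member with 1 to 3 counts in a group, it is a ratio with an exact 95% interval. For groups at 0 it uses a floor of 3 counts over the group. Other such comparisons are given as counts only, and some of their intervals include no difference, such as 0.278 to 78.6 for Oas1a in the input over astrocytes. Intervals and floors cover counting error only. Rounding adds error to the larger counts. The scripts were tested on simulated data. DESeq2 1.42.0, other scalings, no filter, only the compared groups, thinned libraries, animal as a block and the omission of each library were tried. Subtraction of shared counts and omission of astrocytes 3 and 5 together were chosen after seeing the data.

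Values in every library are given for the 4 genes with the highest mean, the 3 largest called changes of each comparison, and the receptor chains and the Irf and Stat genes that passed the filter. Of the other pathway genes, the 2 largest called changes in each direction against the input are named, with Jak1, Jak2 and Tyk2. The genes and lists were chosen with earlier results of these data known. Libraries with the same number come from the same animal, per the labels; over 24 pairs of libraries the correlation of deviations from the group means ran from -0.0976 to 0.113, with 1 pair over 0.1.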

Additional observations from a re-analysis of the deposited data

Results flagged for a closer look

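Over 108 sets of 4 libraries, 5 had a library apart from the other 3 of its group by Dixon's criterion, which is 4.63%, and chance alone gives about 1 in 20. Ifih1 stood at 227.6 CPM in microglia 2 beside 25.5 to 40.2 in the other microglia libraries, Ddx58 at 82.7 beside 27.2 to 34.5, and Gbp2 at 31.0 beside 7.32 to 11.1. Microglia 2 is the shallowest microglia library, with 191236 counts, and the estimate of shared counts was 44.5% of its total; the part of either was not tested. Stat2 stood at 36.6 CPM in astrocytes 5 beside 5.71 to 10.3 in the other astrocyte libraries. Bst2 stood at 76.7 CPM in input 5 beside 39.1 to 44.3 in the other input libraries.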

How the results depend on the processing

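Of the 65 calls over the 6 comparisons, 48 were kept without each library in turn, 43 under every planned setting that gave a value and 39 when the added settings are included, and no call changed sign. The thinned libraries gave a value for 37 of the 65 calls and lost 8, and the fit of only the compared groups for 58 and lost 4. Bst2 in astrocytes against input, which was not called, changed from 0.73 to -0.63 when the shared counts were subtracted, by the construction of that setting. The counts of genes called below are given without the shares over all genes in the same setting. A change in these counts therefore does not set the interferon genes apart from other genes. Without 1 library in turn, the genes called were 10 to 13 higher and 3 to 4 lower in microglia against input, 0 to 2 and 9 to 12 in astrocytes against input, 2 to 3 and 1 to 4 in neurons against input, 14 to 18 higher in microglia against astrocytes, 8 to 12 higher and 0 to 1 lower in microglia against neurons, and 5 to 11 lower in astrocytes against neurons. With thinned libraries, where fewer genes passed the filter, microglia against input gave 6 higher and 1 lower, astrocytes against input 3 lower, microglia against astrocytes 8 higher, microglia against neurons 4 higher and 0 lower, and astrocytes against neurons 4 lower. With the shared counts subtracted, microglia against input gave 6 higher, neurons against input 1 higher and 2 lower, and microglia against neurons 0 lower. With no filter on low counts, astrocytes against input gave 1 higher, neurons against input 5 lower, and microglia against neurons 15 higher and 0 lower. With only the compared groups fitted, microglia against input gave 5 lower, astrocytes against input 1 higher, neurons against input 4 lower, microglia against neurons 0 lower and astrocytes against neurons 5 lower. With library totals as the only scaling, 16 genes were lower in astrocytes and 2 in neurons against input, and the median of all genes moved by -0.334 in astrocytes against input, -0.148 in microglia against input, -0.131 in neurons against input, 0.185 in microglia against astrocytes and -0.201 in astrocytes against neurons. RLE scaling, which moved the median in neurons against input by 0.154, gave 1 gene higher in astrocytes against input, and DESeq2 gave 2. With animal as a block, pairing libraries of an animal, 1 gene was higher in astrocytes against input and 0 were lower in microglia than in neurons; the block ended the calls of Irf3 and Ifit1 given above and no other of the 65. Without astrocytes 3 and 5, neurons against input gave 4 lower and microglia against neurons 14 higher. Beyond the constructions named, the cause of these changes was not tested. Counts of a few per library limit what can be seen in astrocytes and neurons.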
